A study of Pan troglodytes with 50 samples.

Results

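The elements described here are 192 human accelerated regions (HARs) of the set named 2xHAR, those numbered above 280 that were tested whole in a single tile and were present as both a human and a chimpanzee allele. They were chosen by name alone, and run from 2xHAR.281 to 2xHAR.563. Together they make 384 of the 2440 elements of the HAR reporter library and 384 of the 2590 elements of a second library, the HAR control library, while a further permutation library held 0 of them. Each element is 171 bases long, and its position is the one its name carries on the human assembly GRCh37. The HARs lie on 22 chromosomes, with 25 on chromosome 3, 21 on chromosome 2 and 12 on chromosome 7. Another 32 single-tile 2xHARs of those numbers were present with 1 allele only and were not used. In 11 of the HARs a restriction site used for cloning had been changed in both alleles, an EcoRI site in 20 alleles and an SbfI site in 2.

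The study packaged the libraries in integrating lentivirus and infected neural cells that had been made from chimpanzee induced pluripotent stem cells. The HAR library was read in 4 groups: line Pt2A at stage N2, line Pt5C at stage N2, line Pt2A at stage N3 and line Pt5C at stage N3. The labels call the N2 cells neural progenitor cells and the N3 cells glial progenitor cells, and assign them to the telencephalon. Each group had 3 separately infected cultures, each with 1 RNA library and 1 DNA library, and the HAR control library was read the same way in 3 cultures of Pt2A N2. No group carried an edited gene or a drug treatment, and every group shared the viral infection and 4 days of culture after it. Each line stands for 1 cell line, so a difference between Pt2A and Pt5C compares 2 lines and the spread between cultures is the spread between infections of the same line. RNA profiles of these cells were not analysed here, so the labelled stages were not checked against marker genes.

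HARs are stretches of DNA that stayed nearly the same through vertebrate or mammalian evolution and then gathered an unusual number of substitutions on the human branch. Most lie outside coding exons, and many are thought to work as developmental enhancers, including in the forming forebrain. In a lentiviral massively parallel reporter assay each candidate sequence is placed beside a minimal promoter and a transcribed barcode and is integrated into the genome of the infected cell. The count of a barcode in RNA, divided by its count in integrated DNA, reads how strongly the sequence drives transcription. Placing the human and the chimpanzee form of a HAR in the same cells asks whether the sequence difference alone changes that readout.

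The HAR control library also held, for 58 of the 192 HARs, an element named as a shuffled version of it. The native sequences were not read here, so it was not checked that these designed elements hold the same bases. Of these designed sequences 5 are printed because their parent HARs carry results below: 2xHAR.392 drove the strongest reporter of the HAR control library among members, 2xHAR.518 had the most repeatable difference between alleles, 2xHAR.350 and 2xHAR.402 read far below their own shuffled sequence, and the alleles of 2xHAR.511 lay on opposite sides of it. No base is in capitals, since no motif was marked.
2xHAR.392, shuffled: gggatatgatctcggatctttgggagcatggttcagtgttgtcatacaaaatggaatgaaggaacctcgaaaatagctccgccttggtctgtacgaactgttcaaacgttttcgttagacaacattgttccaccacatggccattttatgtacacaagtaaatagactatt
2xHAR.518, shuffled: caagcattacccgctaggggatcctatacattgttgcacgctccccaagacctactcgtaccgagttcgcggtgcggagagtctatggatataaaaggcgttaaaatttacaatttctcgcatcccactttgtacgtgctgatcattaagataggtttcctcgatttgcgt
2xHAR.350, shuffled: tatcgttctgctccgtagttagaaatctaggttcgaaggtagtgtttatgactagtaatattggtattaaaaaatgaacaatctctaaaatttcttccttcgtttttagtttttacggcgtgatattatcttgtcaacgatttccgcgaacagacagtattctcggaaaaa
2xHAR.402, shuffled: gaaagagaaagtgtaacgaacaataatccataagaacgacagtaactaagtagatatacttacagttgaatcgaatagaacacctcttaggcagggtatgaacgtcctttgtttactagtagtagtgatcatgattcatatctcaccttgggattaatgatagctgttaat
2xHAR.511, shuffled: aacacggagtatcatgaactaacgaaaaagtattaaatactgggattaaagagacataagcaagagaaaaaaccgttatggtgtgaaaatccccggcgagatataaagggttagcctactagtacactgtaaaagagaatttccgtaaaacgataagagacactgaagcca
Their GC content was 40.9% for 2xHAR.392, 46.2% for 2xHAR.518, 33.9% for 2xHAR.350, 35.1% for 2xHAR.402 and 37.4% for 2xHAR.511, against a median of 40.4% over the 58 shuffled sequences.

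The raw readout is a barcode of 15 bases counted in RNA and in DNA. In the HAR control library, over 7214 barcodes of the negative control elements with at least 30 DNA counts, the median RNA count per DNA count was 2.43, and 80% of the barcodes lay between 1.68 and 3.63. The chimpanzee allele of 2xHAR.392 had 51 such barcodes with a median of 16.9, and its middle barcode, tccgctagtacgatc, was counted 1559 times in RNA and 92 times in DNA. The human allele had a median of 14.2 over 64 barcodes, and its middle barcode, ccagttctcagctac, had 1882 RNA and 133 DNA counts. For both alleles the 10th percentile of the barcodes, 8.65 in the human allele and 8.45 in the chimpanzee allele, lay above the 90th percentile of the negative controls. The alleles of 2xHAR.518 differed at the same raw level. Its chimpanzee allele gave a median of 7.46 over 71 barcodes, with tggcttagtacgatc in the middle at 917 RNA and 123 DNA counts. Its human allele gave 4.26 over 63 barcodes, with tccgttcctaagcgc in the middle at 328 RNA and 77 DNA counts.

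Below, activity is log2 of the RNA count over the DNA count, summed over the barcodes of an element, with the median of the 120 negative controls as zero. An element was called higher or lower than zero at a Benjamini-Hochberg adjusted p under 0.05 in edgeR's quasi-likelihood test over all elements of the library. A member allele had 56 to 100 barcodes (median 85), and no member was lost to a filter on counts or barcodes. RNA libraries of the HAR groups held 5410033 to 41867492 counts and DNA libraries 6641422 to 16823119. In the HAR control library RNA libraries held 24263262 to 25951194 counts and DNA libraries 8649221 to 9464926. The members' barcodes were nearly the same in both libraries, with 31609 barcodes shared of 32149 in the HAR library and 31650 in the HAR control library. Agreement between the libraries is therefore agreement between infections and sequencing runs of the same barcoded copies, and not of independently barcoded ones.

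One of the 5 readings stood apart from the rest before any call was made. Over the 384 member alleles, the mean activity in Pt2A N2 had a correlation of −0.14 with the HAR control library, which was read in the same line and stage. Its correlation was 0.18 with Pt5C N2, −0.036 with Pt2A N3 and −0.12 with Pt5C N3, whereas the other readings correlated with each other at 0.64 to 0.88. The 3 cultures of Pt2A N2 agreed among themselves at 0.94 to 0.96, so the departure was common to all of them. When the Pt2A N2 RNA was divided by the DNA of Pt2A N3 instead of its own DNA, its correlation with the HAR control library was 0.63 and that with Pt5C N3 was 0.70. The 3 DNA libraries of Pt2A N2 also differed from each other less than any other set of DNA libraries: a chi-square per degree of freedom over single barcodes was 1.04 to 1.06 there, 1.58 to 1.71 in the other HAR groups and 1.42 to 1.46 in the HAR control library, where pure counting noise gives 1. Summed over elements the same measure was 1.06 for libraries 1 and 3, 2.58 for 1 and 2 and 2.97 for 2 and 3, and they were kept as 3 libraries. With the 3 summed into 1, an alternative chosen after seeing the data, 67 member alleles were called higher and 105 lower in Pt2A N2 (21.5% and 28.5% of all elements). Within Pt5C N2, culture 3 correlated at 0.70 and 0.72 with the cultures 1 and 2, which correlated with each other at 0.94, and it correlated at 0.56 with the Pt2A N2 mean. For alleles named for their activity and pairs named for their allele difference, dividing by the N3 DNA sometimes turned a Pt2A N2 value or changed its call. In those cases the value over the N3 DNA is given beside it. For alleles named for a stage change, the change over the N3 DNA is given, and the Pt2A N2 level over that DNA is not. What set this group apart was not tested.

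Most members were weak reporters, close to the negative controls on either side. The median member activity was −0.0099 and 0.020 in the Pt2A groups (N2, then N3), 0.0047 and 0.014 in the Pt5C groups, and 0.061 in the HAR control library. The spread over the 384 alleles was an SD of 0.17 and 0.16 in Pt2A, 0.12 and 0.20 in Pt5C, and 0.36 in the HAR control library. These spreads were several times the error of a single allele, since the median SD between cultures was 0.033 to 0.045 and the median standard error between barcodes 0.047 to 0.055. The strongest members stood far out, and they were not the same from reading to reading. The highest activity was 0.78 in Pt2A N2 (2xHAR.518, chimpanzee allele), 1.03 in Pt2A N3 (2xHAR.348, chimpanzee), 0.63 and 1.00 at the stages of Pt5C (2xHAR.393, human) and 2.67 in the HAR control library (2xHAR.392, chimpanzee).

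Members were called about as often as the libraries as a whole. In Pt2A N2, 89 alleles (23.2%) were higher than the negative controls and 130 (33.9%) lower, against 27.3% and 33.6% of all elements. The Pt5C N2 counts were 119 higher (31.0%) and 116 lower (30.2%), against 32.0% and 26.8%. For Pt2A N3 they were 128 (33.3%) and 112 (29.2%), against 37.0% and 28.5%. Pt2A N2 over the N3 DNA had 71 alleles higher and 132 lower, against 20.0% and 30.7% of all elements. All of the shares over a group's own DNA lay within 5 percentage points of the background. The Pt5C N3 cultures gave 136 higher (35.4%) and 142 lower (37.0%), against 37.5% and 35.8%. The HAR control library gave 202 (52.6%) and 128 (33.3%), against 52.9% and 33.4%. With zero at the TMM centre in place of the negative controls, the HAR control library gave 161 higher and 174 lower (43.2% and 43.2% of all), so which side held more calls depended on the zero. The same held for Pt2A N3, with 103 higher and 129 lower by that zero (32.6% and 32.7% of all). With the spread between barcodes as the error, Pt2A N2 had 39 alleles higher and 78 lower (12.9% and 22.7% of all elements). By that error Pt5C N2 had 65 and 54 (17.3% and 12% of all), Pt2A N3 had 76 and 32 (23.7% and 13.2%), and Pt5C N3 had 77 lower (19.9%). The counts moved less for higher alleles of Pt5C N3 (100, against 136) and in the HAR control library (167 and 93, against 202 and 128). Calls on small activities in the HAR groups therefore depended on which error was used.

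At least 4 of the 5 readings called 93 alleles higher (24.2%, against 25.6% of all 2440 elements) and 77 lower (20.1%, against 19.2%). All 5 readings called 22 higher (5.73%, against 9.26%) and 25 lower (6.51%, against 7.42%). Without Pt2A N2, all 4 remaining readings called 78 alleles higher (20.3%, against 22.5%) and 68 lower (17.7%, against 17.4%). Both alleles of the same HAR passed at least 4 readings in 29 HARs on the higher side (15.1%, against 15.6% of all 839 pairs) and in 22 on the lower side (11.5%, against 8.34%). The alleles of a HAR, which share nearly all of their bases, had levels that correlated at 0.73 to 0.85 in the HAR groups and 0.89 in the HAR control library. Of the 384 alleles 7 were called in no reading (1.82%, against 2.17% of all elements), while 135 were called higher in 1 or more readings and lower in others (35.2%, against 35.0%). Pt2A N2 and the HAR control library often went opposite ways: 91 alleles were lower in Pt2A N2 and higher in the control library (23.7%, against 22.2% of all elements), and 26 the reverse (6.77%, against 7.7%). Both called 48 higher (12.5%, against 15.1%) and 31 lower (8.07%, against 9.22%). Pt5C N3 and the HAR control library called 134 alleles higher in both (34.9%, against 36.7%), 111 lower in both (28.9%, against 29.3%) and 6 in opposite directions (1.56%, against 1.68%).

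The most active member of the HAR control library was 2xHAR.392 (chr18:7442533-7442703). In the HAR control library its chimpanzee allele read 2.70, 2.62 and 2.70 in the 3 cultures and its human allele 2.57, 2.53 and 2.52, so the chimpanzee cultures all lay above the human ones. The chimpanzee allele was much weaker in the HAR groups. Line Pt2A gave 0.16, 0.12 and 0.21 at N2 and 0.24, 0.15 and 0.13 at N3, and line Pt5C gave 0.30, 0.19 and 0.10 at N2 and 0.67, 0.70 and 0.59 at N3. It was called higher in all 5 readings, although the level in the HAR control library was far above that of every HAR culture. The human allele was called higher in 4 readings and lower in Pt2A N2, where its cultures gave −0.15, −0.23 and −0.047. Over the N3 DNA that Pt2A N2 value was 0.20 and was called higher, and that of the chimpanzee allele was 0.25. The human call in Pt5C N2 was lost without culture 1 (0.088, adjusted p = 0.060 in edgeR). Nearly the same barcodes of the chimpanzee allele thus gave a mean of 0.16 in the HAR library and 2.67 in the HAR control library, both in Pt2A N2.

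2xHAR.393 (chr15:90944240-90944410) was active in every reading but, for its human allele, Pt2A N2. Its chimpanzee allele read 0.24 ± 0.028 (SD, n = 3) at N2 and 0.81 ± 0.023 at N3 in Pt2A, 0.53 ± 0.20 and 0.86 ± 0.046 in Pt5C, and 1.39 ± 0.047 in the HAR control library. Its human allele read 0.63 ± 0.032 in Pt2A N3, 0.63 ± 0.25 and 1.00 ± 0.031 at the 2 stages of Pt5C, and 1.10 ± 0.010 in the HAR control library, and at 0.047 it did not pass the test in Pt2A N2, nor at 0.084 over the N3 DNA. Both large SDs in Pt5C N2 came from culture 3, which gave 0.34 for the human allele where the other cultures gave 0.76 and 0.79. The chimpanzee allele of 2xHAR.518 (chr14:80280283-80280453) was called higher in all 5 readings, from 0.24 to 0.84 over the 12 HAR cultures and at 1.60, 1.66 and 1.64 in the HAR control library.

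Human alleles of 3 further HARs completed the active end. For 2xHAR.360 (chr10:98273708-98273878) activity was 0.63 ± 0.083 in Pt2A N3, 0.41 ± 0.16 and 0.70 ± 0.072 at N2 and N3 of Pt5C, and 0.99 ± 0.016 in the HAR control library. Its value in Pt2A N2 was 0.040 and not called, and over the N3 DNA it was 0.25 and called higher. 2xHAR.445 (chr20:30753247-30753417) read 0.0032 at N2 and 0.15 ± 0.042 at N3 in Pt2A, 0.32 ± 0.15 and 0.58 ± 0.051 in Pt5C, and 1.54 ± 0.072 in the HAR control library. All but the first were called, and the first became 0.27, called higher, over the N3 DNA. The Pt2A N3 call was lost without culture 1, at 0.11, and with the spread between barcodes as the error. 2xHAR.561 (chr6:91797724-91797894) read 0.15 ± 0.045, 0.076, 0.42 ± 0.094, 0.60 ± 0.033 and 1.26 ± 0.038 in the same order, and the Pt2A N3 value did not pass. With the N3 DNA its Pt2A N2 value was 0.19. All 6 of these highly active HARs had their largest value in the HAR control library. They were ranked by a mean over all readings that includes this library, the one of widest spread. The ranking therefore favoured alleles high in it, and the shared maximum is not a separate result.

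At the other end, activities below the negative controls were small and spread over several readings. The human allele of 2xHAR.402 (chr4:20340080-20340250) was called lower in all 5. Its cultures read −0.17, −0.22 and −0.32 in Pt2A N3, −0.22, −0.29 and −0.15 at N2 of Pt5C, −0.26, −0.31 and −0.27 at N3 of Pt5C, and −0.45, −0.30 and −0.32 in the HAR control library. In Pt2A N2 it was −0.061 (−0.19 over the N3 DNA), a call lost without any 1 culture. 2xHAR.317 (chr15:91009515-91009685) had a chimpanzee allele at −0.47 in Pt2A N2, which became −0.064 and not called over the N3 DNA. In the other HAR groups it read −0.19 to −0.21, against −0.059 in the HAR control library, a call lost without culture 3. The human allele of 2xHAR.483 (chr15:56152535-56152705) was called lower by edgeR in every reading, at −0.12 in Pt2A N2 and −0.17 to −0.21 in the other readings. For 2xHAR.478 (chr12:108357481-108357651) the chimpanzee allele ran from −0.069 in Pt2A N2 (−0.091 with the N3 DNA) to −0.23 in Pt5C N3. For 2xHAR.444 (chr7:124667115-124667285) it ran from −0.027 in Pt2A N2, not called but at −0.13 and called lower with the N3 DNA, to −0.25 in the HAR control library. 2xHAR.397 (chr15:36726809-36726979), an element with a changed EcoRI site, had a human allele that ran from −0.071 to −0.21. In Pt2A N2 the calls on 2xHAR.478 and 2xHAR.397 were lost without culture 2, and that on 2xHAR.397 also without culture 3. With the spread between barcodes as the error, the Pt2A N2 calls on 2xHAR.402, 2xHAR.483, 2xHAR.478 and 2xHAR.397 were lost. So were the HAR control call on 2xHAR.317 and the Pt2A N3 call on 2xHAR.397.

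The shuffled sequences give a second reference, and against it members, like all alleles compared, were lower more often than higher. Over the 58 HARs the shuffled sequence itself was above the negative controls in 43 and below in 4, with values from −0.17 to 0.85 and a median of 0.18. Of all 150 shuffled sequences, 107 (71.3%) were above and 19 below. An allele was called different from its shuffled sequence where edgeR's test and a permutation of barcodes between the pair of sequences both passed at an adjusted p under 0.05. Of the 116 member alleles compared, 26 (22.4%) were higher than the shuffled sequence and 48 (41.4%) lower, against 28.3% and 39.1% of all 279 such alleles. The human and the chimpanzee alleles each gave 13 higher and 24 lower, against 29.3% and 39.3% of all human and 27.1% and 38.8% of all chimpanzee alleles compared. Both alleles of a HAR are set against the same shuffled sequence, so their counts are not separate evidence.

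Named HARs lay on both sides of their shuffled sequences. The shuffled 2xHAR.392 read 0.061 ± 0.049, and the human allele was 2.48 and the chimpanzee allele 2.61 above it. The shuffled 2xHAR.518 read 0.48 ± 0.026, with the human allele 0.36 and the chimpanzee allele 1.15 above. 2xHAR.360 was 0.54 and 0.47 above a shuffled sequence at 0.45. Of the lower ones, the shuffled 2xHAR.350 (chr6:101966224-101966394) read 0.57 ± 0.032 while its alleles read −0.085 (human) and −0.088 (chimpanzee), both 0.66 below. For 2xHAR.402 the human allele was 0.64 and the chimpanzee allele 0.56 below a shuffled value of 0.29. The shuffled form was the stronger reporter for these HARs and the weaker one for 2xHAR.392. 2xHAR.511 had a shuffled value of 0.26 ± 0.021, with its human allele 0.17 below and its chimpanzee allele 0.55 above. The adjusted barcode p was 2.3e-05 for 2xHAR.392, 2xHAR.350 and 2xHAR.402, the smallest the permutations gave after adjustment.

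The change from N2 to N3 was read in each line as the N3 activity minus the N2 activity, with each library scaled by edgeR's TMM factors and without moving the zero to the negative controls. In Pt2A, 129 member alleles (33.6%) rose and 133 (34.6%) fell, against 32.3% and 34.7% of all elements. With the change centred on the negative controls they were 146 and 94 (36.4% and 24.6% of all). In Pt5C, 56 (14.6%) rose and 26 (6.77%) fell, against 12.6% and 5.2%. The Pt2A counts rest on the Pt2A N2 group, and over the N3 DNA they were 101 and 103 (27% and 27.2% of all). Over the N3 DNA both stages are divided by the same DNA, which cancels, so such a stage change compares RNA alone. Of its 262 calls, 128 were made again in the same direction over the N3 DNA and 63 had the opposite sign. For 220 of the 262, the activity in the HAR control library, itself Pt2A N2, was nearer to Pt2A N3 than to Pt2A N2. The 262 were chosen by the gap between these stages, on which the nearness is also measured. Of the 82 Pt5C calls, 55 were made again over the N3 DNA and 4 had the opposite sign. Shares over all elements were not computed for repeated calls, opposite signs or nearness, so these counts are not read as particular to the members. Pt5C counts moved with single cultures: 31 rose without culture 2 of Pt5C N3 and 37 without its culture 3, and 13 fell without culture 3 of Pt5C N2 or without culture 2 of Pt5C N3. Calls made in both lines numbered 60 (15.6%, against 14.8% of all elements), of which 56 had the same sign (14.6%, against 13.8%).

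The largest rise in Pt2A was in 2xHAR.348 (chr2:190306145-190306315). Relative to the negative controls, its chimpanzee allele read −0.18, −0.24 and −0.20 in the N2 cultures and 1.01, 1.02 and 1.07 in the N3 cultures, and its human allele −0.34, −0.47 and −0.31 against 0.60, 0.65 and 0.60. The stages did not overlap, and the change was 1.22 for the chimpanzee allele and 0.97 for the human allele. With the N3 DNA these were 0.93 and 0.52, still called. In the HAR control library, at N2, the alleles read 0.63 and 0.38, above their own Pt2A N2 values in the HAR library. In Pt5C the chimpanzee allele changed by 0.20 and the human allele by 0.25, also called. 2xHAR.284 (chr6:35027799-35027969) had the next largest rise, with a change in Pt2A of 0.97 for the chimpanzee allele (−0.52, −0.75 and −0.47 at N2, and 0.36, 0.39 and 0.50 at N3) and 0.86 for the human allele. With the N3 DNA the chimpanzee change was 0.29 and called, and the human change was 0.12 with an adjusted p of 0.060 in edgeR. In the HAR control library, at N2, the chimpanzee allele of 2xHAR.284 read 0.83, above its N2 and its N3 cultures in the HAR library. The human allele read 0.67 there.

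Falls in Pt2A were smaller. All 4 alleles named here were also called lower over the N3 DNA, that is in RNA alone. The chimpanzee allele of 2xHAR.432 (chr18:62021340-62021510) read 0.69, 0.67 and 0.70 at N2 and −0.068, −0.047 and −0.087 at N3, and fell by 0.78. It was −0.62 over the N3 DNA, while the HAR control library gave −0.21 for this allele at N2. That of 2xHAR.518 fell by 0.48 (−0.46 over the N3 DNA), from 0.71, 0.79 and 0.84 to 0.24, 0.36 and 0.36. That of 2xHAR.407 (chr3:138694182-138694352) fell by 0.30 (−0.22 with the N3 DNA), from 0.48, 0.49 and 0.32 to 0.11, 0.20 and 0.17. Its cultures in Pt5C showed no such step, at 0.47, 0.49 and 0.39 for N2 and 0.45, 0.55 and 0.47 for N3. The human allele of 2xHAR.505 (chr16:7359788-7359958) fell by 0.29, and by 0.19 over the N3 DNA. It read −0.32 in the HAR control library, at N2.

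In Pt5C the stage change was led by 2xHAR.392. Its chimpanzee allele rose from 0.30, 0.19 and 0.10 at N2 to 0.67, 0.70 and 0.59 at N3, a change of 0.46 (adjusted p = 4.1e-09 in edgeR), and 0.36 over the N3 DNA. Its human allele rose by 0.34. The stage change of the chimpanzee allele in Pt2A was −0.0089 and not called, and the lines differed by 0.47 in edgeR's test of that difference. In 2xHAR.393 the human allele rose by 0.36 (adjusted p = 0.034 in edgeR), a call lost without any 1 of the Pt5C N3 cultures. In 2xHAR.522 (chr14:104559811-104559981) the human allele rose by 0.34, and by 0.11 over the N3 DNA. Falls were small: the chimpanzee allele of 2xHAR.534 (chr9:28859235-28859405) went from 0.32, 0.32 and 0.28 to 0.14, 0.10 and 0.12, a fall by 0.18. The chimpanzee allele of 2xHAR.551 (chr16:8407943-8408113) fell by 0.17 and the human allele of 2xHAR.526 (chr2:215453148-215453318) by 0.16. The human allele of 2xHAR.534 fell by 0.15, which was −0.067 and not called over the N3 DNA.

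The stage change itself differed between the lines for 138 member alleles (35.9%, against 33.5% of all elements), by edgeR's test of the difference. Among the alleles named above, the difference (Pt5C minus Pt2A) was −1.01 for the chimpanzee allele of 2xHAR.348, 0.60 for that of 2xHAR.432 and 0.56 for that of 2xHAR.518. Pt2A N2 enters every one of these differences, and over the N3 DNA, where RNA alone is compared, 144 alleles were called (34.5% of all elements).

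The human minus chimpanzee difference was called only where edgeR's test and a permutation of barcodes between the alleles passed with the same sign, each adjusted over all 839 pairs of a library. Few members passed in the HAR groups and more in the HAR control library. In line Pt2A, 12 pairs were called at N2 (6.25%, against 4.65% of all pairs) and 4 at N3 (2.08%, against 2.62%). In line Pt5C, 7 were called at N2 (3.65%, against 3.1%) and 7 at N3 (3.65%, against 2.98%). The mean over the 4 groups gave 3 pairs (1.56%, against 1.43%) and the HAR control library 27 (14.1%, against 15.0%). The mean over the 3 groups other than Pt2A N2 gave 6 (3.12%, against 2.86%). Each share was near its background. By edgeR alone, which sees the spread between cultures and not that between barcodes, the counts would be 97 for the mean (54.1% of all pairs pass so), 59 and 53 in Pt2A (29.3% and 28.8% of all), 50 and 58 in Pt5C (26.0% and 32.1%), and 89 in the HAR control library (48.3%).

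Of the 27 pairs called in the HAR control library, the human allele was higher in 8 (4.17% of members, against 7.39% of all pairs). It was lower in 19 (9.9%, against 7.63%). Looser calls were nearly even. By edgeR alone 43 were higher and 46 lower (25.3% and 23.0% of all pairs). An unadjusted barcode permutation p under 0.05 gave 21 and 24 (12.5% and 13.1% of all). The median difference over the 192 pairs was −0.00082. By both tests, in the single-tile 2xHARs numbered 280 or less, the human allele was higher in 18 and lower in 7 of 149. By edgeR alone these were 40 and 31. The difference between these 2 sets of elements was not tested. Of the 27 pairs, 26 had the same sign in Pt2A N3, 24 in Pt5C N3, 22 in Pt5C N2 and 13 in Pt2A N2. Over the 192 pairs the allele difference in the HAR control library correlated at 0.71 and 0.58 with N3 and N2 of Pt5C, and at 0.65 and 0.042 with N3 and N2 of Pt2A. These correlations are over elements that share their barcodes. Over all readings, 20 pairs were called in at least 1 HAR group (9.3% of all pairs were), 7 in 2 or more (2.74% of all pairs) and 1, 2xHAR.518, in all 4.

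In 2xHAR.518 the human allele was the weaker one in every culture. In Pt2A the difference was −0.49, −0.57 and −0.55 at N2 and −0.24, −0.23 and −0.34 at N3. In Pt5C it was −0.30, −0.32 and −0.25 at N2 and −0.36, −0.35 and −0.37 at N3, and in the HAR control library −0.79, −0.80 and −0.79. It was called in all 5 readings, also in Pt2A N2 over the N3 DNA (−0.45), and in the mean of the 4 groups at −0.37 (adjusted barcode permutation p = 0.0012). In the HAR control library the human allele read 0.84 and the chimpanzee allele 1.63, from the same counts as the raw barcode ratios given above. In the HAR groups the human allele lay nearer to zero, at 0.00050 to 0.29 over the 12 cultures.

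2xHAR.401 (chr17:5667563-5667733) had the largest allele difference of any member in a HAR group. In Pt2A N3 it was −0.82, −0.95 and −0.93, with the chimpanzee allele at 0.82 and the human allele at −0.082. In the HAR control library it was −0.56 ± 0.017 (SD, n = 3), with levels of 0.67 and 0.10. The human allele was also the lower one in all 9 other cultures, but by means of only −0.10 in Pt2A N2 and, in Pt5C, −0.048 at N2 and −0.16 at N3, none of them called. The mean of the 4 groups, −0.30, was called and rested mostly on Pt2A N3. 2xHAR.534 was the third pair called in the mean, at −0.28. Its difference was −0.38 ± 0.050 in Pt5C N2, −0.36 ± 0.045 in Pt5C N3 and −0.38 ± 0.048 in the HAR control library, all called, and −0.20 and −0.16 in Pt2A N2 and Pt2A N3, not called. In all 15 cultures of both pairs the human allele was the lower one.

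In 3 pairs the human allele was higher in several readings. 2xHAR.445 differed by 0.75, 0.75 and 0.90 in the HAR control library, with the human allele at 1.54 and the chimpanzee allele at 0.74, and by 0.37 ± 0.060 in Pt5C N3 and 0.21 ± 0.12 in Pt5C N2, all called. Its difference was 0.11 in Pt2A N3 and −0.066 in Pt2A N2 (0.13 with the N3 DNA), not called, and the Pt5C N2 call was lost without culture 1, without culture 2 and without the strongest barcode. 2xHAR.530 (chr10:107100448-107100618) differed by 0.50 ± 0.0070 in the HAR control library, 0.24 ± 0.091 in Pt2A N3 and, at N2 and N3 of Pt5C, 0.20 ± 0.11 and 0.21 ± 0.059, all called. It was −0.12 in Pt2A N2 and 0.080 there with the N3 DNA, neither called. Its median RNA count per DNA count over barcodes was 3.06 in the human allele and 2.20 in the chimpanzee allele. Over the N3 DNA both pairs were also called in the mean of the 4 groups, at 0.22. The call of 2xHAR.530 in Pt5C N3 was lost without culture 1 or culture 2, and that in Pt5C N2 likewise. 2xHAR.472 (chr15:91865046-91865216) differed by 0.40 ± 0.026 in the HAR control library, 0.19 ± 0.043 in Pt5C N2 and 0.25 ± 0.069 in Pt5C N3, all called, and by under 0.03 in both Pt2A groups. Its Pt5C calls were lost without culture 2 of N2 and without culture 1 of N3, and that at N2 also with the N3 DNA (0.16, adjusted permutation p = 0.070).

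Other pairs were called in the HAR control library and not in most HAR groups. 2xHAR.511 (chr10:103726663-103726833) differed by −0.67, −0.75 and −0.74 there, with the human allele at 0.099 and the chimpanzee allele at 0.82. In the HAR groups its mean differences were 0.061, 0.095, −0.036 and 0.018, and none was called. 2xHAR.318 (chr21:21700204-21700374) differed by −0.34 ± 0.073 in the HAR control library and by −0.15 to −0.20 in the 3 HAR groups other than Pt2A N2, without a call. 2xHAR.348 had a chimpanzee allele stronger by 0.26 in the HAR control library and, in Pt2A N3, a human minus chimpanzee difference of −0.42, −0.37 and −0.47, both called. 2xHAR.458 (chr20:11858332-11858502), whose human allele had 56 barcodes, as few as any member allele, and whose chimpanzee allele had 66, differed by 0.45 ± 0.016 in the HAR control library. Its Pt2A N2 cultures gave −0.39, −0.47 and −0.39, which passed in edgeR and not over barcodes (adjusted permutation p = 0.096), and the value with the N3 DNA was 0.18, not called.

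Opposite allele calls came from Pt2A N2. Of its 12 called pairs, 6 had the sign of the HAR control library, and 2, 2xHAR.432 and 2xHAR.518, were called again over the N3 DNA (1.19% of all pairs were called so). 2xHAR.556 (chr3:67788066-67788236) read 0.52, 0.48 and 0.44 in Pt2A N2 and −0.51, −0.44 and −0.57 in the HAR control library, both called. Over the N3 DNA its Pt2A N2 difference was 0.0048. 2xHAR.313 (chr2:205129739-205129909) read 0.20 ± 0.046 in Pt2A N2 and −0.40 ± 0.026 in the HAR control library, and −0.11 over the N3 DNA. Its Pt2A N2 call was lost without culture 2. 2xHAR.300 (chr16:6923379-6923549) read 0.34 ± 0.088 and −0.23 ± 0.045, and −0.18 over the N3 DNA. All 3 were also negative in the other 3 HAR groups, without a call in the main tests. 2xHAR.313 was called in Pt5C N2 over the N3 DNA (−0.25) and in Pt5C N3 without the strongest barcode (−0.23). 2xHAR.300 was called in Pt2A N3 without the strongest barcode (−0.21) or without culture 1 (−0.23). 2xHAR.510 (chr5:171094636-171094806) was −0.51, −0.57 and −0.60 in Pt2A N2, −0.022 over the N3 DNA, and 0.10 in the HAR control library without a call. 2xHAR.432 read −0.64, −0.59 and −0.59 in Pt2A N2 and −0.31 ± 0.11 in Pt5C N2, both called, but −0.015 in the HAR control library. Over the N3 DNA its Pt2A N2 difference was −0.54. Its Pt5C N2 call was lost without culture 3 and over the N3 DNA.

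Whether the allele difference itself depended on stage or line was tested with the same pair of tests on contrasts of differences. Between the stages of Pt2A it differed in 32 pairs (16.7%, against 12.8% of all pairs), and in 19 over the N3 DNA (7.87% of all). In that last count the DNA cancels, so it compares RNA alone. Between the stages of Pt5C it differed in 0 (0.238% of all pairs), with 0 by edgeR alone (0.238% of all) and 21 at an unadjusted barcode permutation p under 0.05 (9.77% of all). Between the lines it differed in 19 pairs at N2 (9.9%, against 7.75%), and with the N3 DNA in 1 (0.358% of all), and in 9 at N3 (4.69%, against 3.1%). Calls at N3, which use no N2 library, moved with cultures too, from 2 to 7 pairs without any 1 of them. The clearest at N3 was 2xHAR.401, whose difference was larger in size in Pt2A by 0.74, followed by 2xHAR.348 at 0.36 and 2xHAR.445 at 0.26 (each Pt5C minus Pt2A). The call on 2xHAR.348 was lost without culture 1 or 3 of Pt2A N3 and without culture 2 or 3 of Pt5C N3. That on 2xHAR.445 was lost without culture 3 of Pt2A N3 and without culture 1 of Pt5C N3.

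The members at the ends of the number range had no allele call. 2xHAR.281 (chr2:178845356-178845526) had a mean allele difference of 0.073. 2xHAR.563 (chr18:39364027-39364197) was below the negative controls in all 5 readings in both alleles, from −0.041 to −0.16 in the human allele and from −0.058 to −0.20 in the chimpanzee allele. Just outside the rule, 2xHAR.279 (chr17:73753546-73753716) had a human level of 1.00 and a chimpanzee level of 0.76 in Pt2A N2, against 0.0068 and −0.0011 in Pt2A N3 and 0.12 and 0.11 in the HAR control library. Its allele difference in Pt2A N2, 0.25, was called, and over the N3 DNA it was 0.085 and not called. 2xHAR.317, whose chimpanzee allele was low in every HAR group, had its human allele higher in 15 of 15 cultures by means of 0.076 to 0.15, and none of these was called.

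Activity was slightly lower at higher 2xHAR numbers in the readings other than Pt2A N2. Over the 192 HARs the Spearman correlation of the number with the mean activity of both alleles was −0.12 and −0.19 at N2 and N3 of Pt5C, −0.15 in Pt2A N3, −0.16 in the HAR control library and 0.052 in Pt2A N2. These are descriptions over elements read in the same libraries, and weak ones. In Pt5C N3, 47.5% of the 122 alleles of 2xHAR.281 to 2xHAR.374 were higher than the negative controls, 30.6% of the 134 alleles up to 2xHAR.468 and 28.9% of the 128 alleles up to 2xHAR.563. The HAR control library gave 63.9%, 47.0% and 47.7%, with median activities of 0.18, 0.012 and 0.032. In these 2 readings the step lay between the first range and the other 2. Pt5C N2 gave 33.6%, 32.8% and 26.6%, falling after the second range. Pt2A N3 gave 37.7%, 32.8% and 29.7%, a gradual fall. Medians in both were highest in the first range, at 0.026, −0.0058 and −0.0042 in Pt5C N2 and 0.038, 0.0051 and 0.011 in Pt2A N3. Pt2A N2 gave the opposite order of higher calls, at 18.9%, 23.1% and 27.3%. Its medians, −0.0093, −0.0079 and −0.015, did not follow that order and were lowest in the last range. The size of the allele difference had no such relation, with correlations of −0.081 to −0.0062 over the 5 readings. The stage change (N3 minus N2) correlated with the number at −0.17 in Pt2A, which rests on Pt2A N2, and at −0.22 in Pt5C. Its size correlated at −0.071 and −0.045. Pairs called in the HAR control library numbered 6, 8 and 13 in the 3 ranges of 61, 67 and 64 HARs, where 15.0% of all pairs were called. In that library the size of the allele difference correlated with the number at −0.011. Whether the count of calls changed with the number was not tested.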

How the data were processed

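Each deposited file holds, per barcode, the whole-number count of that barcode in 1 RNA or DNA library. The authors made these counts from paired reads of 15 bases with a molecular identifier, per the labels; the sources used here give neither the counting tool nor whether identifiers or reads were counted. Coordinates are those in the element names, on GRCh37 per the submitters' processing notes. Counts were summed over barcodes per element and fitted with edgeR 4.0.16 (R 4.3.3; TMM, glmQLFit, glmQLFTest, Benjamini-Hochberg over all elements or pairs, adjusted p under 0.05), 1 fit for the 24 HAR libraries and 1 for the 6 HAR control libraries. Values per culture used a pseudocount of 0.5. The barcode test permuted the barcodes of a pair between its sequences (at least 10 barcodes each, 10000 resamples, raised to 100000 for small p, two-sided). DESeq2 1.42.0 size factors were an alternative. Scripts were tested on simulated data (Python 3.11.15).

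A p over cultures rests on 3 infections of the same line, and a p over barcodes on the differently barcoded copies of a sequence; neither covers a spread between animals. RNA and DNA libraries of the same replicate number did not deviate together (correlation −0.14 to 0.080 over elements), so edgeR's main fit did not pair them. Values per culture, their SDs and the rule of stages not overlapping did divide RNA by the DNA of the same number. Leaving out a culture removed both libraries of that number. Shuffled elements were tested only within the HAR control library.

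The members, lists and tests were chosen with earlier results of these data known. Named elements are the 8 most and 6 least active alleles called in at least 4 of 5 readings, the 14 largest allele differences of 28 eligible pairs, the 4 largest stage changes per line and direction with stages not overlapping, the 3 largest differences of the allele difference per contrast, and a fixed list of HARs. 2xHAR.350 and the quoted shuffled comparisons were chosen after their values were seen.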

Additional observations from a re-analysis of the deposited data

Results flagged for a closer look

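The stage change differed between the lines, by edgeR's test of the difference (adjusted p under 0.05), in 9 of the alleles named for a stage change. The differences below are the Pt5C change minus the Pt2A change. For the chimpanzee alleles they were −1.01 in 2xHAR.348, −0.63 in 2xHAR.284, 0.60 in 2xHAR.432, 0.56 in 2xHAR.518, 0.47 in 2xHAR.392 and 0.34 in 2xHAR.407. For the human alleles they were −0.72 in 2xHAR.348, −0.52 in 2xHAR.284 and 0.18 in 2xHAR.505. Pt2A N2 enters all of them.

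The human minus chimpanzee difference itself differed between groups in these pairs, by both tests of the difference. Between the stages of Pt2A (N3 minus N2) it differed by −0.80 in 2xHAR.401, 0.67 in 2xHAR.510 and 0.64 in 2xHAR.432. Over the N3 DNA, which cancels between stages, these were −0.82, 0.13 and 0.57, and the second was not called. Between the lines at N2 (Pt5C minus Pt2A) it differed by 0.57 in 2xHAR.458, −0.50 in 2xHAR.556 and 0.48 in 2xHAR.510, and none of the 3 was called over the N3 DNA. Between the lines at N3 it differed by 0.74 in 2xHAR.401, 0.36 in 2xHAR.348 and 0.26 in 2xHAR.445.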

How the results depend on the processing

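Over the N3 DNA the activity of the human allele turned to 0.20 in 2xHAR.392 and 0.27 in 2xHAR.445 (Pt2A N2), the Pt2A N2 allele difference to −0.11 in 2xHAR.313 and −0.18 in 2xHAR.300, and the difference between lines at N2 to −0.0030 in 2xHAR.458 and −0.030 in 2xHAR.510. Pairs called over the N3 DNA numbered 2 in Pt2A N2, 6 in the mean, 19 between the stages of Pt2A, 1 between those of Pt5C and 1 between lines at N2, and 40 alleles fell in Pt5C. The counts between stages among these compare RNA alone. Where neither this section nor the text above gives a share over all elements or pairs, none was computed. Such counts show how calls moved with processing, and not how members compare with the library. With barcode spread as error, alleles higher and lower were 39 and 78 (Pt2A N2), 65 and 54 (Pt5C N2), 76 and 32 (Pt2A N3), with 77 lower in Pt5C N3; requiring edgeR too changed only the Pt2A N3 count higher, to 75. By edgeR alone, pairs called were 97 (mean), 59, 50, 53 and 58 (HAR groups, as above) and 89 (HAR control). The mean of the 3 groups other than Pt2A N2 gave 6 pairs, and Pt2A N3 without the strongest barcode 7. The correlation of activity with the number was −0.17 over those 3 groups and −0.16 in the HAR control library. Summing the Pt2A N2 DNA libraries into 1, chosen after seeing the data, gave 12 pairs between lines at N2. With a block for the replicate number, shared by RNA and DNA libraries that do not deviate together, 1 pair was called between the stages of Pt5C and 17 between lines at N3; every other count stayed within 1.5 times.

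Without any 1 culture, alleles higher and lower were 70 to 78 and 97 to 121 (Pt2A N2), 91 to 135 and 89 to 114 (Pt5C N2), 100 to 110 and 95 to 104 (Pt2A N3), 115 to 135 and 114 to 129 (Pt5C N3), and 192 to 199 and 115 to 122 (HAR control). Stage calls were 118 to 128 and 111 to 125 (Pt2A), and 31 to 63 and 13 to 28 (Pt5C). Pairs called were 10 to 13, 3 to 6, 4 to 6 and 5 to 5 in the HAR groups, 3 to 3 in the mean and 23 to 28 in the HAR control library; between conditions they were 22 to 27 (stages of Pt2A), 0 to 0 (stages of Pt5C), 10 to 25 (lines, N2) and 2 to 7 (lines, N3). Correlations with the number were −0.15 to −0.13 (activity) and −0.055 to −0.020 (size of the allele difference). A minimum of 20 barcodes removed no pair, and DESeq2's size factors, which scale both alleles of a library alike, were not run for pairs.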
